A study of Mus musculus with 96 samples.

Results

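The genes described here encode cadherins and epithelial junction proteins: Cdh1 (E-cadherin), Cdh2 (N-cadherin), Epcam, Cldn6 and Cldn7 (claudins), Dsp (desmoplakin) and Tjp1 (ZO-1). They were chosen by symbol, mapped to Ensembl identifiers, and make up 7 of the 36205 gene rows of the deposited count table. Their counts were read in each of 61 single mouse embryonic stem (ES) cells grown in serum/LIF, a medium of fetal serum and the cytokine leukaemia inhibitory factor. The cells were of the E14 line, labelled wild-type and of C57BL/6 background. DNA and mRNA had been separated from each cell, and RNA libraries were made from the amplified cDNA. The labels list 96 wells, of which 76 are serum/LIF, 16 are 2i (a medium with inhibitors of MEK and GSK3) and 4 held no cell; the 2i wells, the empty wells and the other 15 serum/LIF wells were not analysed here. Each sample was 1 cell, and separate cultures are not named; so all cells count as 1 culture, no condition was compared, and the values below are descriptions with no test.

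Epithelial cells hold together through several kinds of junction. In adherens junctions, classical cadherins of neighbouring cells bind each other through calcium-dependent ectodomains, and their cytoplasmic tails bind β-catenin, which α-catenin connects to actin. In tight junctions, claudins seal the space between cells and ZO-1 anchors them inside the membrane; in desmosomes, desmoplakin ties the junction to keratin filaments. EpCAM is a surface glycoprotein that binds claudin-7. E-cadherin compacts ES cell colonies, and cells that pass through the primitive streak are known to lose E-cadherin and gain N-cadherin.

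Total counts per cell ran from 2417702 to 6787261 (median 4244480), with 5317 to 10032 genes detected and 0.0543% to 4.45% of counts from mitochondrial genes. Pou5f1, the pluripotency factor Oct4, had reads in 61 of 61 cells, with a median of 1138 CPM (counts per 1000000 counts). It stood far lower in 5 cells that come up again below: 78.2 CPM in well G03, 183 in A02, 201 in A07, 205 in D07 and 216 in B03, where the next cell had 435 CPM. Some results that could rest on those 5 cells are also given without them, a choice made after seeing the data. Marker lists of other lineages were present in part. The filter used here, defined further on, passed 4 of 14 primitive endoderm genes and 4 of 10 trophectoderm genes. It also passed 5 of 10 neural ectoderm genes and 3 of 12 fibroblast genes. Of all 36205 gene rows, 10868 passed. The list counts were not tested against that share, so they do not by themselves set these lineages apart from other genes. The summed level per cell ran from 38.9 to 2118 CPM for the primitive endoderm list, led per kilobase by Sparc, and from 0 to 597 CPM for the trophectoderm list, led by Cdx2. For the neural list, led by Nes, it ran from 0 to 631 CPM, and for the fibroblast list, led by Tagln, from 0.80 to 6031 CPM, the latter in G03. Some defining markers were at or near 0: Gata4 had reads in 2 cells and Sox17 in 1 (primitive endoderm), Elf5 and Tpbpa in 0 (trophectoderm), Sox1 in 0 (neural ectoderm), and Postn in 0 and Dcn in 3 (fibroblasts). Mesendoderm markers were more widespread, with T (brachyury) read in 40 cells and Mixl1 in 17. For a gene with a count in 0 of 61 cells, the share of cells with a read could be up to 4.92%, counting error only. The 33 cells of plate rows A to D and the 28 of rows E to H were also described separately, since the plate position is the only technical grouping in the labels.

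RefSeq promoter sequences (GRCm38.p6, 250 bases before a transcription start) were at hand for Cldn6, Cldn7, Dsp, Epcam and Tjp1. Cldn7 has a pair of listed starts, the downstream one inside the gene. The stretches below are shown because the claudins varied together over the cells, as described further on, and share a letter string at almost the same place. The capitals mark TGACGTCA, the cyclic AMP response element, which reads the same on both strands; it was picked out after the sequences had been seen. It began 40 bases before the RefSeq start of Cldn6 (stretch at chr17:23679314-23679343, plus strand) and 38 bases before the downstream start of Cldn7 (stretch at chr11:69965372-69965401, plus strand).
Cldn6: aggtggtccagTGACGTCAttgagacttta
Cldn7: tgtcccttcagTGACGTCAggtcactcgac
Of 32841 RefSeq promoter windows of that length, 1.55% hold TGACGTCA; the windows of Dsp, Epcam, Tjp1 and the upstream Cldn7 start do not. A longer GENCODE transcript of Cldn6 starts further upstream, at 23679249, so that the Cldn6 stretch also lies in that transcript's first exon. A match of letters describes the sequence and is no evidence of binding.

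The E-box CAGGTG, searched on both strands, is the string that Snail and Zeb repressors are known to bind in junction gene promoters. It was found in 17.2% of all windows. Epcam held a pair, 187 and 19 bases before its start; Cldn6 held 1 at 93 bases and the downstream Cldn7 window a pair at 97 and 57 bases. None of these overlaps TGACGTCA. The windows of Dsp, Tjp1 and the upstream Cldn7 start had no match. The Epcam window (chr17:87635729-87635978, plus strand) is shown with both E-boxes in capitals.
Epcam: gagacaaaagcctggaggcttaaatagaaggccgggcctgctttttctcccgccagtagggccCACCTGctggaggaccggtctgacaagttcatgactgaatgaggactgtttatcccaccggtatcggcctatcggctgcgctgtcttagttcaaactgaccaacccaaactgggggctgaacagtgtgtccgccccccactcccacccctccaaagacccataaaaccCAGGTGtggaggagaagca
The windows also differed in CpG dinucleotides, the sites of DNA methylation. Dsp and Tjp1 each had 22 in 250 bases, more than 85.2% of all windows, whereas Epcam had 8, Cldn6 had 9, the Cldn7 starts had 6 and 10, and the median window had 6. The Dsp window (chr13:38151044-38151293, plus strand), with its CpGs in capitals, is 72.4% G and C.
Dsp: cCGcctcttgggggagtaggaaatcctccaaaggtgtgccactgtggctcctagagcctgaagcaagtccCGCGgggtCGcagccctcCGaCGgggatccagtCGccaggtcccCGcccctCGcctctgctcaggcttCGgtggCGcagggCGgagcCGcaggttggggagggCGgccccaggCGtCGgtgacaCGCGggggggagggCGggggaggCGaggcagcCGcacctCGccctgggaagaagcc

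The 7 genes fell into a widely read set, Epcam, Cdh1 and Tjp1, an intermediate pair, the claudins, and a sparse pair, Dsp and Cdh2. Levels are given in CPM after TMM scaling of library sizes, and a read here means a count of at least 1. A count of 3, taken as the smallest that a library could be relied on to show, equals 0.442 to 1.24 CPM depending on the cell. All 7 genes passed a filter of at least 10 counts in at least 10 cells, which 30% of gene rows passed. Over the 10868 genes that passed, the median gene had reads in 43 cells and a mean of 32.2 CPM. All 7 members had a read in 15 cells, 5 or more of them in 46 cells, and at most 2 in 4 cells.

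Epcam (chr17:87635979-87651129, GRCm38, plus strand) had reads in 59 of 61 cells (96.7%, exact 95% interval 88.7% to 99.6%). Its level ran from 0 through a median of 335 to 844 CPM, with a mean of 345 ± 204 CPM (SD, n = 61). The cells without a read were in wells B10 and E01. Per kilobase of merged exon it had the highest mean of the 7 genes, 157 CPM.

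Cdh1 (chr8:106603351-106670246, plus strand) had reads in 57 cells (93.4%, 84.1% to 98.2%). It ran from 0 through a median of 254 to 926 CPM in well C10, with a mean of 271 ± 202 CPM, or 59.3 CPM per kilobase. All 57 cells held at least 10 Cdh1 reads, so detection of Cdh1 was clear-cut. The wells without a read were B09, D04, F07 and H03. D04 held Epcam at 494 CPM, Cdh2 at 134 CPM and T at 749 CPM, the highest T level of the 61 cells. The other wells without Cdh1 held Zfp42 (Rex1, a marker of naive pluripotency) at 1099.6 CPM in B09, 480 CPM in F07 and 714 CPM in H03, and no T read. Cells without E-cadherin reads were thus not of 1 kind by these markers.

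Tjp1 (chr7:65296165-65527781, minus strand) was read in 53 cells and ran from 0 through a median of 65.95 to 368 CPM in well B03, with a mean of 85.7 ± 91.1 CPM. Its transcript is long, and per kilobase its mean was 10.98 CPM, near the 8.08 CPM of the median gene. Its paralogue Tjp3 had at least 10 reads in 1 cell.

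Cldn6 (chr17:23679249-23682446, plus strand) was read in 48 cells (78.7%, 66.3% to 88.1%). Its level ran from 0 through a median of 135 to 527 CPM in well G09, with a mean of 146 ± 131 CPM and 85.04 CPM per kilobase. Cldn7 (chr11:69964779-69967885, plus strand) was read in 50 cells (82.0%, 70.02% to 90.6%), from 0 through a median of 73.2 to 784 CPM in well G03, with a mean of 120 ± 153 CPM. Per kilobase of merged exon Cldn7 averaged 61.8 CPM, and 90.1 CPM per kilobase of its longest transcript. Its place between Cldn6 and Cdh1 was the same with both lengths. With merged exons it lay close to Cdh1 (59.3 CPM), and with the longest transcript close to Cldn6 (90.2 CPM).

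Dsp (chr13:38151294-38198577, plus strand) varied widely, from no read in 29 cells through intermediate levels to high ones. It had reads in 32 of 61 cells (52.5%, 39.3% to 65.4%), of which 26 had at least 10. The median was 0.453 CPM, but A07 reached 877 CPM, B03 reached 810 CPM and G10 611 CPM, for a mean of 92.9 ± 186 CPM and 9.61 CPM per kilobase. Without the 5 cells of low Pou5f1, 2 of which are A07 and B03, the mean was 57.6 ± 114 CPM, with reads in 27 of 56 cells. A gene model on the opposite strand, Gm10129, shares 499 bases of exon with Dsp and is not a row of the table used; whether the counting used strand is not given in the sources used here.

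Cdh2 (chr18:16588877-16809246, minus strand) was the lowest of the 7 per kilobase, at 4.06 CPM (6.75 CPM with the longest transcript). It had reads in 29 cells (47.5%, 34.6% to 60.7%), of which 19 had at least 10. The median was 0 and the mean 32.7 ± 101 CPM. A single cell, D07, held 716 CPM, 35.9% of the sum over all cells; the next was C09 with 187 CPM. Without D07 the mean was 21.3 CPM, and it was 47.1 CPM in rows A to D against 15.7 CPM in rows E to H. D07 also had the highest Mixl1 (2941 CPM), Gata6 (213 CPM) and Snai1 (58.2 CPM) of the 61 cells, no Cldn6 read, and Cdh1 at 216 CPM. In the order of mean CPM per kilobase (Epcam, Cldn6, Cldn7, Cdh1, Tjp1, Dsp, Cdh2), the step from Cdh1 to Tjp1 exceeded the larger SD of its pair, 44.2 CPM for Cdh1; the other 5 steps did not. The plot of levels by cell shows these differences in spread.

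**Figure D1:**
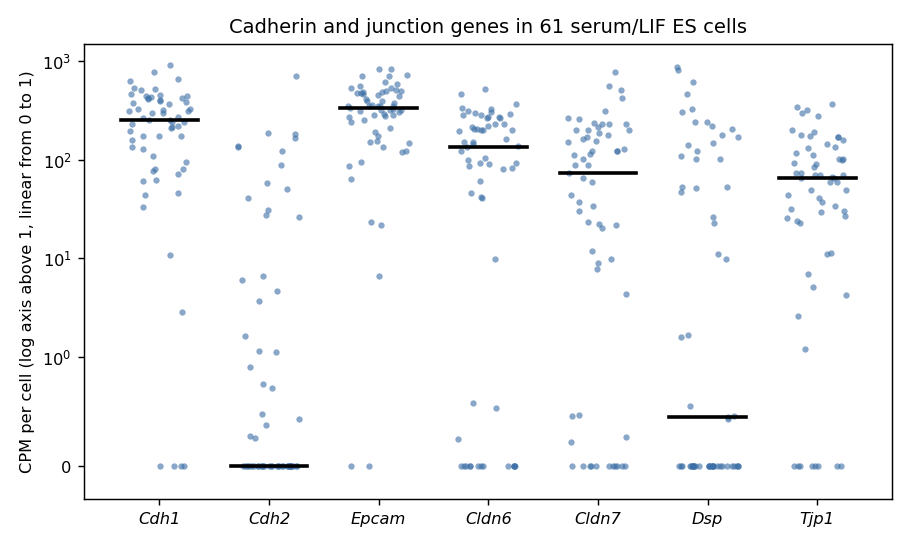
CPM of each gene in each of 61 cells (points, 1 per cell, spread sideways at random) with the median as a bar; the axis is logarithmic above 1 CPM and linear from 0 to 1. Epcam and Cdh1 have medians of 335 and 254 CPM and run from 0 to 844 and 926 CPM. Dsp and Cdh2 have medians of 0.453 and 0 CPM with some cells above 100 CPM.

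To compare spread at unlike levels, the squared coefficient of variation of each gene was divided by that of a trend fitted over the 10868 genes. This ratio was above 1 for 68.5% of those genes, with a median of 1.41, and above 1 for all 7 members, so a ratio above 1 does not set them apart. Epcam, at 1.14, was below the median gene. Cdh1 (1.65), Cldn6 (1.75) and Tjp1 (1.75) lay near the 60.2 to 64.5 percentiles. Cldn7 had a ratio of 3.13 (93.2 percentile), Dsp 6.53 (99.3 percentile) and Cdh2 6.93 (99.5 percentile).

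Among the 7 genes, leaving out the highest cell moved the ratio by over 1.5 times for Cdh2 alone. Without its highest cell the ratio of Cdh2 was 2.60, at the 87.2 percentile, whereas that of Dsp without A07 was 5.57, still at the 99.0 percentile, and that of Cldn7 without G03 was 2.49. In rows E to H alone Cdh2 missed the filter, and Dsp had 5.13, against 9.34 in rows A to D. The plot of variation against mean level places the genes among all others.

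**Figure D2:**
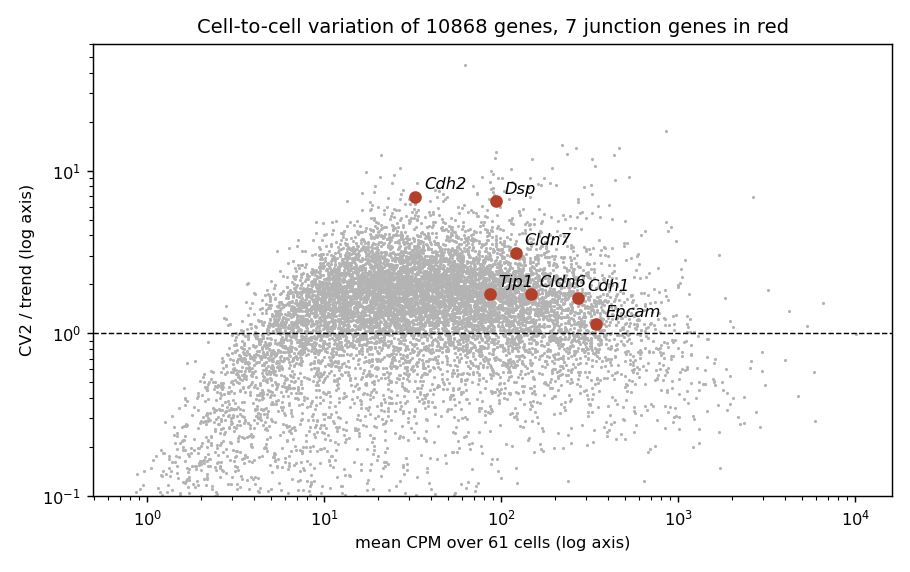
Each grey point is 1 of 10868 genes: mean CPM over 61 cells (log axis) against the squared coefficient of variation divided by the trend (log axis, cut at 0.1 below); the dashed line is the trend itself. Cdh2 (6.93) and Dsp (6.53) sit at the upper edge, and Epcam (1.14) is close to the line.

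Co-variation over cells was described by Spearman's rho of log2(CPM + 1) once the share of genes detected had been regressed out, over 61 cells of 1 plate that share that normalization. Of the 21 pairs among the 7 genes, the claudins stood highest: Cldn6 and Cldn7 had a rho of 0.72. The rho was 0.73 in rows A to D, 0.76 in rows E to H and 0.74 without the regression. Among 7549 genes read in at least 30 cells, each claudin had its highest rho with the other, although the genes lie on different chromosomes. Both had reads in 43 cells, Cldn6 alone in 5, Cldn7 alone in 7 and neither in 6. At a minimum of 10 reads, 41 cells had both and 11 neither. Without the 5 cells of low Pou5f1 the rho was 0.71.

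Dsp followed the claudins, with a rho of 0.53 with Cldn7 and 0.52 with Cldn6 (0.51 and 0.55 without the 5 cells of low Pou5f1). Nearly all cells with Dsp reads also had Cldn7 reads, 31 of 32, while Cldn7 was read without Dsp in 19 cells. Cdh1 had a rho of 0.50 with Cldn6 and 0.40 with Cldn7, but 0.15 with Dsp and 0.16 with Epcam. Epcam had 0.36 with Cldn6 and 0.30 with Cldn7, its known binding partner. These were 0.52 and 0.39 in rows A to D, but 0.20 and 0.14 in rows E to H. Tjp1 had 0.37 with Cldn7 and 0.33 with Cldn6, these being the 2 of its 6 pairs at 0.3 or more, where 2.27% of all genes reached that value. For both claudins, 6.31% (Cldn6) and 6.27% (Cldn7) of the other 10867 genes reached a rho of 0.3, and 5 of the other 6 members did. Without the 5 cells of low Pou5f1, Epcam with Cldn7 (0.28) and Tjp1 with Cldn6 (0.26) were under that value. So were both Epcam pairs in rows E to H. In rows A to D, Tjp1 with Cldn6 (0.16) and with Cldn7 (0.29) were under it. A naive marker score, described further on, had a gap with 52 cells below it. In those cells Epcam had 0.20 with Cldn6 and 0.16 with Cldn7, and Cdh1 had 0.39 and 0.34.

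With E-cadherin read in 57 of 61 cells, most cells with N-cadherin reads also held E-cadherin reads. The rho of Cdh1 with Cdh2 was -0.01 over 61 cells, -0.05 in rows A to D and 0.03 in rows E to H. Both were read in 27 cells, Cdh1 alone in 30, Cdh2 alone in 2 and neither in 2; at a minimum of 10 reads the counts were 17, 40, 2 and 2. C09, second in Cdh2 at 187 CPM, held Cdh1 at 376 CPM; D09 held 166 and 310 CPM of Cdh2 and Cdh1. Cdh2 reached its highest rho among the members with Dsp, 0.29, and that value was 0.27 without D07. Only 1 Cdh2 pair moved by more than 0.2 between all cells and a plate part: Cdh2 with Tjp1 was 0.23 in all cells and 0.45 in rows E to H.

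**Figure D3:**
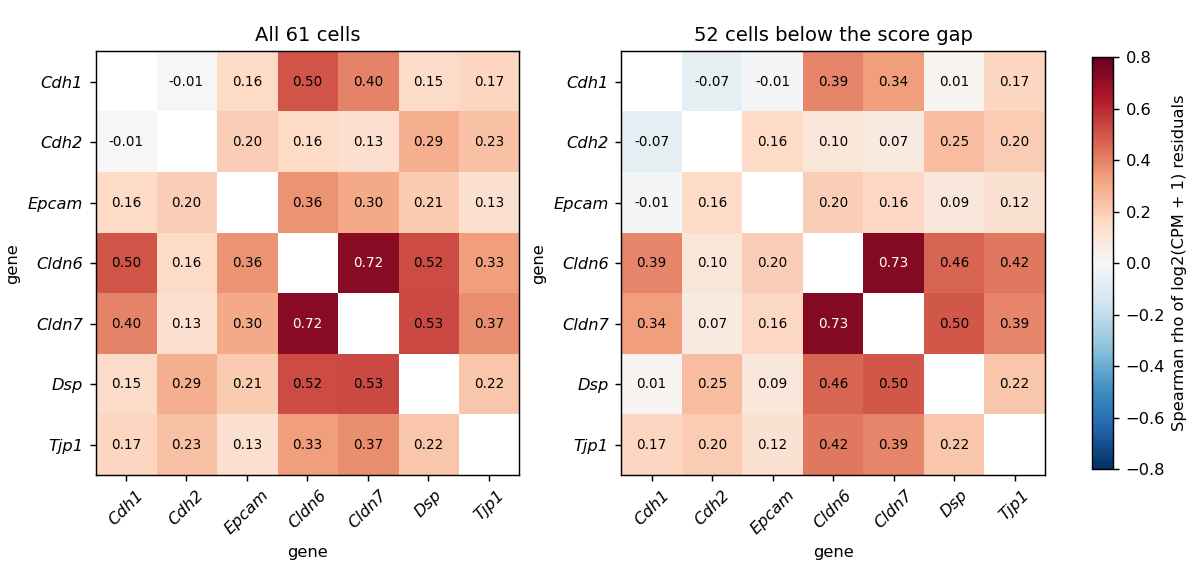
Spearman's rho for each pair of the 7 genes (color and number; both axes list the genes) over all 61 cells and over the 52 cells below a gap in the naive marker score. Cldn6 with Cldn7 is highest in both (0.72 and 0.73), and Cdh1 with Cdh2 is near 0 (-0.01 and -0.07).

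The other junction genes were taken from lists by role. Of 7 classical and related cadherins in the table, 3 passed the filter; Cdh3 (P-cadherin) averaged 13.6 CPM with reads in 18 cells, and Cdh5, the endothelial cadherin, had at most 0.866 CPM. The cytoplasmic partners of the cadherins were more evenly present. Ctnnb1 (β-catenin) and Ctnna1 (α-catenin) were read in 61 of 61 cells, at 367 ± 224 and 643 ± 434 CPM, and Ctnna1 led its list of 13 per kilobase with 100.03 CPM. Ctnnb1 had a rho of -0.09 with Cdh1, whereas Ctnnd1 (p120-catenin), which stabilises cadherins at the membrane, had 0.32. With the claudins, 5 of the 11 linkers that passed had a rho of at least 0.3, where 6.31% (Cldn6) and 6.27% (Cldn7) of all genes did, Vcl (vinculin) with Cldn6 at 0.50 and Ctnna1 with Cldn7 at 0.48 among them. Lima1, an actin-binding linker with the highest ratio of the list (5.25), went the other way, at -0.39 with Cldn6.

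Of 17 claudin genes, 5 passed the filter and Cldn2, Cldn11, Cldn14, Cldn18, Cldn19 and Cldn23 had a count in 0 cells. Cldn4 was the highest per kilobase, 112 CPM, and the most variable, with a ratio of 8.18 and 2204 CPM in G03, the cell that also led Cldn7. Cldn4 had a rho of 0.49 with Cldn6, 0.47 with Cldn7 and 0.48 with Dsp; Cldn3, read in 19 cells, had 0.10, 0.02 and -0.03. Cldn9, a neighbour of Cldn6 on chromosome 17, had reads in 4 cells and its highest level, 126 CPM, in G09, the cell that led Cldn6.

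Among 15 tight junction scaffold and membrane genes, 14 passed. F11r (JAM-A) led per kilobase at 77.4 CPM. Cgn (cingulin), which binds ZO-1, had a rho of 0.67 with Cldn7 and 0.53 with Cldn6, and Patj, a polarity scaffold, had 0.60 with Cldn7. Jam2 had the highest ratio of the list (5.38) and the lowest rho with 7 of 7 members, -0.50 with Cldn7 and -0.48 with Cldn6. Jam2 had reads in 17 cells. Ocln (occludin) had reads in 17 cells and no rho of 0.3 with a member.

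Desmosome genes were present in part. Of 14, 6 passed, and Dsg3, Dsc3 and Pkp1, genes of stratified epithelia, had a count in 0 cells. Perp led per kilobase at 72.4 CPM with a rho of 0.60 with Cldn7 and 0.48 with Dsp. Dsc2 (desmocollin-2) had the highest ratio, 6.55, reads in 16 cells, and a rho of 0.52 with Dsp, against 0.43 with Cdh2. Dsg2, the desmoglein of simple epithelia, was read in 53 cells and had 0.16 with Dsp but 0.42 with Cdh1. With Dsp, 2 of the 5 other desmosome genes that passed reached 0.3, against 7.20% of all genes.

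The genes known to work with EpCAM included Cd9, a tetraspanin that led its list of 8 per kilobase at 187 CPM, and the protease St14 (matriptase), with the highest ratio, 3.57. EpCAM itself had its highest rho in the list with Spint2, 0.32, an inhibitor of matriptase; 1 of the 7 others reached 0.3, where 4.0% of all genes did. Spint1, the paralogous inhibitor, had 0.53 with Cldn6 and 0.46 with Tjp1. Of 15 polarity genes, 12 passed, and 1 of them reached 0.3 with Cdh1 (Pard6b, 0.31, against 2.62% of all genes). Ezr (ezrin) led per kilobase at 37.3 CPM, Mpp5 (PALS1) had the highest ratio at 2.81, and Pard6b had 0.51 with Dsp.

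Keratins are the filaments that desmoplakin binds. Krt8, Krt18 and Krt19 passed the filter. Of all genes, 6.31% had a rho of at least 0.3 with Cldn6, 6.27% with Cldn7 and 7.20% with Dsp. Of the keratins, 3 of 3 reached it with each of these members. For Dsp the values were 0.58, 0.61 and 0.58, and 0.52, 0.62 and 0.50 without the 5 cells of low Pou5f1. Pou5f1 itself had a rho of -0.45 with Dsp, and -0.33 without those cells. Of these 5 cells, G03, A02, A07 and B03 held Krt8 between 3217 and 6181 CPM, and D07 held 570 CPM; the part of this difference in the results was not tested beyond the values given. Krt8 led the list per kilobase (437 CPM) and in ratio (17.5). Krt8 was read in 30 of the 32 cells with Dsp reads, and in 20 of the 29 without them; D04 and G07 show how far the pair could part. D04 held Dsp at 239 CPM with no Krt8 read, and G07 held 171 CPM with Krt8 at 5.28 CPM. In B01 Krt8 stood at 1274 CPM with Dsp at 0.455 CPM. Krt19 was also the keratin with the highest rho with Cdh2, 0.40, where 4.34% of all genes reached 0.3.

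**Figure D4:**
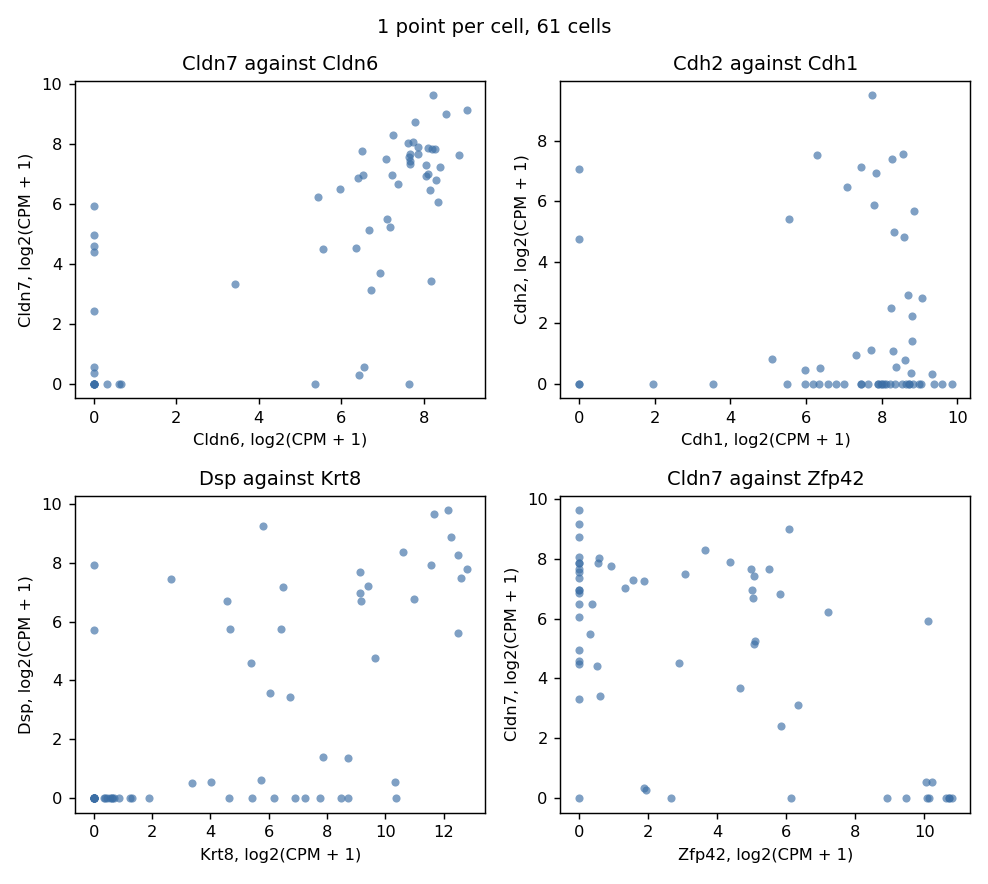
Each point is 1 of 61 cells, on log2(CPM + 1) axes: Cldn7 against Cldn6, Cdh2 against Cdh1, Dsp against Krt8 and Cldn7 against Zfp42. The claudins rise together, with 6 cells at 0 for both; Cdh2 is spread over cells with and without high Cdh1; the cells with Zfp42 above 1000 CPM hold Cldn7 at 0 or below 1 CPM except B09, at 59.9 CPM.

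Several repressors of junction genes had reads in few cells. Of 12, 5 passed the filter, where 10868 of all 36205 gene rows did, so the list was not sparse by that count. Snai1 had reads in 8 cells, Snai2 in 4, Zeb1 in 9, Zeb2 in 12 and Twist1 in 14. Foxc2 had a count in 0 cells. Tcf3, the E-box factor E2A, led per kilobase at 12.4 CPM and had the lowest rho with Epcam, Cldn6, Cldn7 and Tjp1, between -0.16 and 0.05. None of the 5 had a rho of -0.3 or lower with any of the 7 members; with 1.33% to 5.37% of all genes at that value per member, a count of 0 among 5 is near the background. The single value of at least 0.3 was Klf8 with Cdh2, 0.38; Klf8 also had the highest ratio, 4.55. Among 10 activators and splicing factors of epithelial genes, 7 passed and 0 reached 0.3 with a member, which 2.27% to 7.20% of all genes did, so this count too is near the background. Klf5 led them per kilobase (12.4 CPM) and Elf3 in ratio (5.29). Grhl2, a known activator of Cdh1 and claudin genes, was read in 47 cells and had -0.06 with Cdh1, -0.14 with Cldn6 and -0.29 with Dsp. Klf4, which is also a naive pluripotency factor, had -0.37 with Cldn7.

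Naive pluripotency genes ran opposite to the claudins. Of the 15 naive markers that passed, a rho of -0.3 or lower was found for 11 with Cldn7, 9 with Cldn6, 9 with Epcam, 7 with Dsp, 5 with Tjp1, 3 with Cdh2 and 2 with Cdh1. Over all genes those shares were 5.37% for Cldn7, 4.63% for Cldn6, 2.37% for Epcam, 4.45% for Dsp, 1.99% for Tjp1, 1.33% for Cdh2 and 1.55% for Cdh1. The lowest values were -0.68 for Klf2 with Cldn7, -0.57 for Klf2 with Cldn6, -0.60 for Tdh with Dsp, -0.49 for Esrrb with Epcam, -0.40 for Nr5a2 with Cdh1, -0.39 for Sox2 with Cdh2 and -0.37 for Nr0b1 with Tjp1. Nanog, by contrast, lay between -0.22 and -0.14 with all 7. Klf5 was the naive marker with the highest rho for Cdh1, Epcam, Cldn6, Cldn7 and Dsp, between -0.17 and 0.10; Zfp57 (0.13) and Tfcp2l1 (-0.03) were highest for Cdh2 and Tjp1.

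Counts of cells were also taken for Esrrb, an orphan receptor of the naive network examined after the values had been seen. They depended on the minimum of reads. Esrrb is among the naive markers above, so the counts are no separate result. Joint counts were not taken over all genes, so a low count has no background here. With any read counted, 5 cells had both Dsp and Esrrb, and of the 18 cells with Esrrb reads 10 had Cldn6 reads and 9 had Cldn7 reads. At a minimum of 10 reads, 0 of 61 cells had both Dsp and Esrrb, 26 had Dsp alone and 12 Esrrb alone. With Cldn6 the numbers were 2 with both, 43 with Cldn6 alone and 10 with Esrrb alone, and with Cldn7 they were 2, 44 and 10. At the same minimum, 9 of the 12 Esrrb cells had Cdh1 and 11 had Epcam. B05 is an example, with Zfp42 at 1668 CPM, Esrrb at 208 CPM, Cdh1 at 527 CPM and Epcam at 64.2 CPM, but no read of Cldn6, Cldn7 or Dsp. B10, with Zfp42 at 1127 CPM, had Cdh1 (110 CPM) as its only member read, and also the fewest genes detected, 5317.

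A score over the 15 naive markers (the mean of their scaled log2 levels) had its largest gap between 0.983 and 1.56, with 52 cells below it and 9 above. Within the 52 cells below, the score still had a rho of -0.53 with Dsp, -0.46 with Cldn6, -0.43 with Cldn7, -0.43 with Tjp1 and -0.34 with Cdh2, but -0.20 with Epcam and -0.06 with Cdh1. So the relation of the claudins and Dsp to the score was also seen without the 9 cells of highest score, and for Cdh1 it was near 0. The 52 cells still include F07 (score 0.983) and B10 (0.908), which had no read of Cldn6, Cldn7 or Dsp. In the 9 cells above, too few to rank, Dsp had no read. The score there had a rho of 0.33 with Cdh1, 0.22 with Cldn6, 0.08 with Epcam, -0.32 with Cldn7, -0.45 with Cdh2 and -0.63 with Tjp1. Within the 52 cells below the gap Cldn6 and Cldn7 had a rho of 0.73. Depth and quality also varied with the members. The rho with total counts was 0.22 for Dsp, 0.15 for Cldn6, 0.08 for Cldn7, 0.07 for Cdh2, 0.03 for Epcam, 0.00 for Tjp1 and -0.01 for Cdh1, an order close to that of the score apart from Tjp1. The rho with genes detected was highest for Cdh1 (0.34), then Cldn7 (0.26) and Epcam (0.24), and that with the mitochondrial share was lowest for Dsp (-0.29). Their part in these relations beyond the regression on genes detected was not tested. In 7 cells counts from chromosome 14 were low, under 85% of the median share; 5 of them were among the 9 cells above the gap. Without those 7 cells the claudin pair had 0.73.

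Mesendoderm, primed and mesenchymal markers gave a less uniform picture. Of 6 mesendoderm markers that passed, 5 had a rho of at least 0.3 with Dsp, 2 with Cldn7, 1 with Cldn6 and 0 with Cdh1, Cdh2, Epcam and Tjp1. The shares over all genes were 7.20%, 6.27% and 6.31% for Dsp, Cldn7 and Cldn6 and 2.27% to 4.34% for the rest, so the counts of 0 and 1 are near the background. Wnt3, a signal of the primitive streak, was highest for Cldn6 (0.54), Cldn7 (0.56), Dsp (0.56) and Epcam (0.25); Eomes was highest for Cdh1, at 0.28. T, the streak factor, had 0.43 with Cldn7 and 0.05 with Cdh2, its lowest marker. Of 9 formative and primed markers, Cd24a alone reached 0.3, with Cldn6 (0.53), Cldn7 (0.46), Dsp (0.32) and Tjp1 (0.34); Dnmt3b was lowest with Cldn7 (-0.37), Dsp (-0.36), Cldn6 (-0.15) and Cdh2 (-0.28). Fgf5 stayed between 0.05 and 0.18 with all 7 members.

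The mesenchymal list mostly did not run opposite to the epithelial genes. Of 7 that passed, 3 had a rho of at least 0.3 with Cldn6, 3 with Cldn7 and 4 with Dsp. With the other members 1 or 2 did. Over all genes the shares were 6.31%, 6.27% and 7.20% for Cldn6, Cldn7 and Dsp, and 2.27% to 4.34% for the rest. A rho of -0.3 or lower was found for 1 gene, with Epcam, where 2.37% of all genes had it. Tagln (transgelin), which led the list per kilobase (163 CPM), had a rho of 0.62 with Cldn7, 0.54 with Cldn6 and 0.54 with Dsp. Fn1 (fibronectin) had the highest ratio, 13.8, its highest level in D07 (3978 CPM), and 0.37 with Dsp. D07, and G03, where the list had its highest sum (8528 CPM), are among the 5 cells of low Pou5f1. The values of this list are not given without those cells. Vim (vimentin) was lowest for Epcam, at -0.36, and had 0.09 with Cdh2; Vim and Cdh2 both had at least 10 reads in 13 of the 19 cells with that much Cdh2, and Vim had as many in 35 of all 61. The heat map of listed genes sets these groups side by side.

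**Figure D5:**
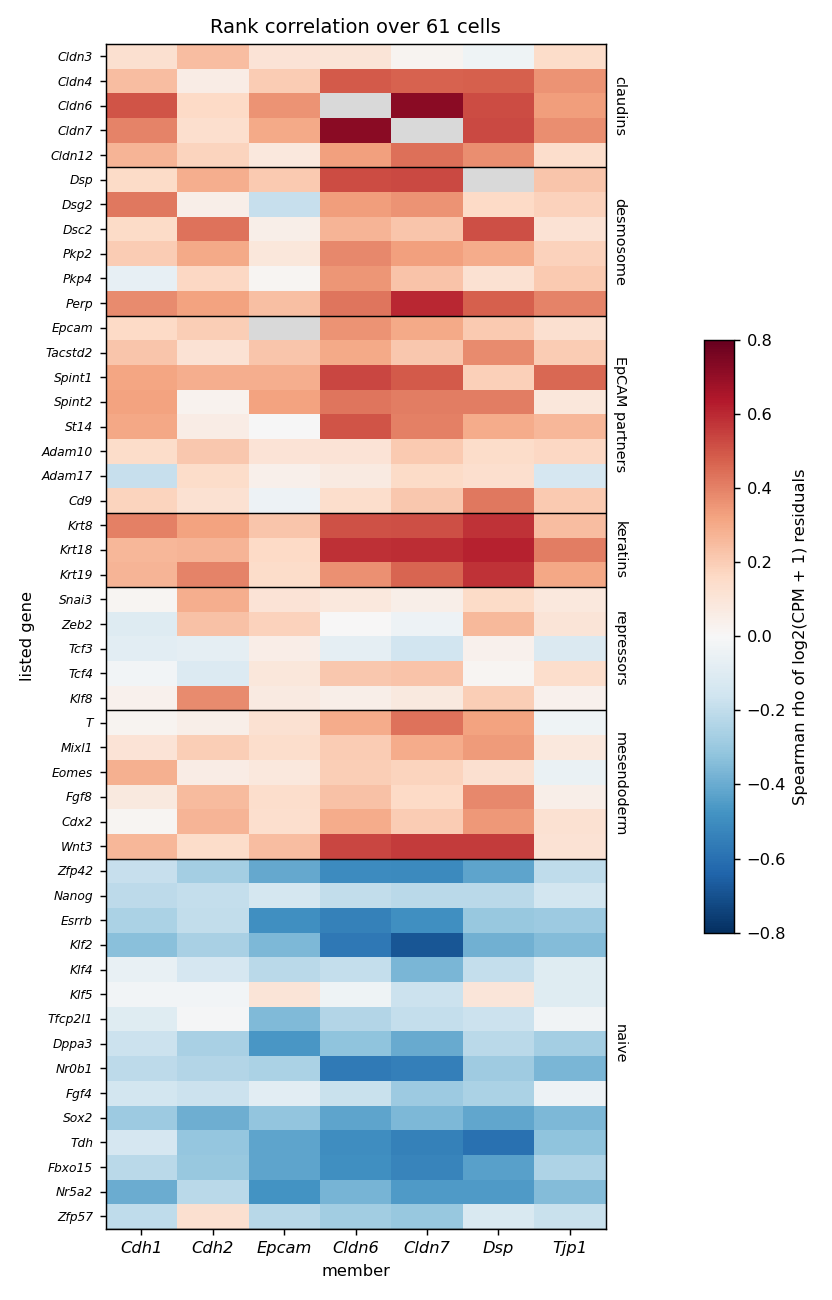
Spearman's rho (color) over 61 cells between each of the 7 members (columns) and the listed genes that passed the filter (rows, grouped by list); grey cells are a gene with itself. The naive markers are mostly blue in the Cldn6, Cldn7 and Dsp columns, where the 3 keratins are red, and the repressor rows are pale for Cdh1 (-0.10 to 0.03).

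Among 7549 genes read in at least 30 cells, those most like each member were named by rank alone. For Cldn6 they were, after Cldn7, Sfn (stratifin, an epithelial 14-3-3 protein, 0.71) and Fam107b (0.61), and the most opposite were Ina and Gm6798 (both -0.62). For Cldn7 they were, after Cldn6, Gm7665 (0.44 in rows E to H) and Tpm1 (tropomyosin 1), both 0.67, and the most opposite were Tet1 (-0.66), a dioxygenase that oxidises methylcytosine, and Mt2 (-0.65, but -0.42 in rows A to D). Dsp was most like Gprc5c (0.68), Igfbp3 (0.64) and S100a11 (0.63). It was most unlike Dppa5a (-0.71), one of the most abundant pluripotency transcripts, and Gsta4 (-0.66). In rows A to D and E to H the value for Dsp with Dppa5a was -0.77 and -0.57, and that for Cldn7 with Tet1 was -0.56 and -0.71.

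The other members had lower leading values. Cdh1 was most like Tubb6 (0.56), Itm2b (0.52) and Tmem9 (0.51) and most unlike Bnip3 (-0.53) and Dnpep (-0.48). Itm2b lies on chromosome 14, and without the 7 cells of low chromosome 14 counts its rho with Cdh1 was 0.43. Epcam was most like Efr3a (0.58, but 0.19 in rows E to H), Cdk6 (0.52, but 0.24 in rows A to D) and Strap (0.52), and most unlike Sox15 (-0.60, but -0.33 in rows E to H) and Acp6 (-0.54). Tjp1 had Eif4h (0.49), Cald1 (0.49, but 0.25 in rows A to D) and Rpn1 (0.48) at the top. At its bottom were Zfp977 and Taf13 (both -0.45), which had -0.15 and -0.11 in rows A to D; Zfp977 had -0.20 without the 7 cells of low chromosome 14 counts. For Cdh2 the top genes Trim8, Rragc and 4930473A02Rik were all at 0.49; Trim8 and Rragc each had 0.16 in rows E to H and 0.29 without the 7 cells of low chromosome 14 counts, Trim8 had 0.23 without the 5 cells of low Pou5f1, and its lowest were Zfp977 (-0.45) and Zfp978 (-0.44). The smallest of the 7 top values were thus those of Tjp1 and Cdh2.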

How the data were processed

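The deposited table holds raw counts per gene for 61 cells, per the file headers and values. The submitters' processing notes name GRCm38, DESeq2, bedtools 2.19.1, SAMtools 0.1.18 and GSNAP; neither the counting rule nor the annotation is given in the sources used here. A second deposited table, of normalized values (an expression signal), was used only for a check: 1.65% of its non-zero values carried the factor of their own cell, so levels were computed from the counts. The 95 spike-in rows, with 14 counts in all, were left out.

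Exon lengths came from GENCODE M21. Symbols came from a list of gene names, or from GENCODE M21 where that list had none (34880 of 36205 rows had a symbol). CPM used TMM library sizes (edgeR 4.0.16, R 4.3.3); the trend of variation came from scran 1.30.0, and correlations from scipy 1.17.1, both tested on simulated data. No pair of cells was a repeat: Pearson's r of their log2 values ran from 0.369 to 0.612. Amplified reads without molecular identifiers are not independent molecules, so intervals over cells cover counting error only.

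Members and gene lists were chosen with earlier results of these data known. Named genes were all members, the top in level per kilobase and in ratio and those at 0 cells of each junction list, the highest and lowest rho of each marker list, and the 3 most and 2 least similar genes of those read in at least 30 cells; others named were chosen after their values were seen. Alternatives were DESeq2 1.42.0 size factors, a pseudocount of 10 CPM, other filters, thinning to 2417702 reads, plate parts and other covariates.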

Additional observations from a re-analysis of the deposited data

How the results depend on the processing

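No paired analysis was possible because the wells carry no replicate numbers shared between groups and 1 group has values. Of the summary values recomputed, 45 stayed within the limits set and 2 did not. The limits were a level within 1 SD over cells, a rho within 0.2, and a ratio or count within 1.5 times. For Cdh2, Cldn7, Dsp and Tjp1 the SD exceeds the mean, so no fall in their level could leave that limit. The marker correlations entered as the median of 301 values (-0.006), which cannot show changes of single markers. The median rho over pairs of members, 0.23 in all cells, was 0.0167 over 15 pairs in the 9 cells above the gap of the naive score, too few to rank; the cause was not tested. Cells with both Cdh1 and Cdh2 fell from 27 to 17 at a minimum of 10 reads, which asks for more reads. Among values of single members and pairs, 385 stayed within the limits and 13 did not: 10 pairs in the 9 cells above the gap, the share of cells with Cdh2 (31.1% at 10 reads), the Cdh2 ratio without D07 (2.60) and Cdh2 with Tjp1 in rows E to H (0.45). Within 1 SD but by over 1.5 times, the mean of Cdh2 moved from 32.7 to 15.7 CPM in rows E to H and 21.3 CPM without D07, and per kilobase from 4.06 to 6.75 CPM with the longest transcript. The ratio of Cdh2 could not be computed in rows E to H or with a filter of 20 cells. The partial rank correlation, the cells around the naive score gap, the omission of D07, of cells with low Pou5f1 (under 25% of its median) and of cells with low chromosome 14 counts and the Esrrb counts were chosen after seeing the data. Low counts were most frequent for Cdh2, where 10 of its 29 cells had under 10 reads. Thinned to the lowest total, Cdh2 had reads in 42.6% of cells, against 47.5% before. The cause of its low counts was not tested.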
